A study of Caenorhabditis elegans with 2 samples.

Results

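The left/right regulators of the ASE taste neurons, che-1, ceh-36, nsy-7, lsy-6, cog-1, die-1, fozi-1, lim-6, lsy-12 and lsy-22, were read in a map of LSY-2 binding in Caenorhabditis elegans. The 10 genes were taken by name from the Ensembl annotation of WBcel235, the assembly that ce11 also denotes, out of 19973 nuclear protein-coding and 261 microRNA genes. A gene's window ran from 5 kb upstream of its annotated 5′ end to its 3′ end, and every listed region with its summit in that window was read. The binding map came from chromatin immunoprecipitation followed by sequencing (ChIP-seq) on L2 larvae of strain OP240. These worms carry the integrated transgene wgIs240, a source of LSY-2 with an eGFP tag, in an unc-119(ed3) background. The larvae were of pooled sex and their age is unknown per the labels. The single group had 2 biological replicates, with neither an untagged nor a mutant group, so no comparison between conditions was possible. Chromatin came from whole organisms, so binding in the ASE pair and binding in all other cells cannot be told apart. The authors listed 30000 regions, peaks and background alike, with a signal for each; one list is from each replicate and one from both together. Regions in the further list of 2182 that the authors kept by irreproducible discovery rate, which scores how well ranks repeat between replicates, are called thresholded here. These 2182 headed the joint list by signal, down to a value of 45.8. Rank 1 is the highest signal within a list. Read counts are not part of these lists, so the depth behind each signal is unknown.

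The ASE neurons are a left and a right cell that look alike but sense different salts. CHE-1, a zinc finger transcription factor, switches on the genes of both cells, together with CEH-36, an Otx-type homeodomain protein. A switch of mutual repression then separates the sides: the microRNA lsy-6 and the zinc finger protein DIE-1 act on the left, and the Nkx-type homeodomain protein COG-1 acts on the right. In the left neuron lsy-6 represses cog-1 through sites in its 3′ untranslated region. FOZI-1, a zinc finger protein, and LIM-6, a LIM homeodomain protein, act below the switch. LSY-12, a MYST-type histone acetyltransferase, and LSY-22, a Groucho-like corepressor, are more general regulators on which the asymmetry also depends. NSY-7, a homeodomain-like protein, is best known from the asymmetry of the AWC odour neurons. LSY-2 itself is a zinc finger protein known genetically to be required for expression of lsy-6 in the left neuron.

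Sequences are given for the regions of lsy-12, the strongest after that of lsy-22, and for the upstream region of cog-1, a central gene of the switch. One is the lsy-12 region nearest to the threshold (chrV:9856508-9856708, minus strand), another the next lsy-12 region (chrV:9860441-9860641, minus strand), and the last the only region listed for cog-1 from both replicates together (chrII:14901732-14901932, plus strand). Each runs 100 bp to either side of the summit on ce11, 5′ to 3′ on the strand of the gene, from the RefSeq copy of the assembly. Capitals mark matches on either strand to GAANCC, the core of the CHE-1 motif, to TAATCC, bound by Otx-type homeodomains, or to TAATTA, a homeodomain core.
lsy-12 within the gene: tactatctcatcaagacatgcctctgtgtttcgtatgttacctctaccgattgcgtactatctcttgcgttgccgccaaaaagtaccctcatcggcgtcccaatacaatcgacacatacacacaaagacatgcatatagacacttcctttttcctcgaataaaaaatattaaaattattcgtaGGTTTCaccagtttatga
lsy-12 upstream: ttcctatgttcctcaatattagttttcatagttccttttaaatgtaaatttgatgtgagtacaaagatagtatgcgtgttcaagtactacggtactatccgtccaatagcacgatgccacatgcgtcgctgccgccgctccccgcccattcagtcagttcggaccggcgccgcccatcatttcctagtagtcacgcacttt
cog-1 upstream: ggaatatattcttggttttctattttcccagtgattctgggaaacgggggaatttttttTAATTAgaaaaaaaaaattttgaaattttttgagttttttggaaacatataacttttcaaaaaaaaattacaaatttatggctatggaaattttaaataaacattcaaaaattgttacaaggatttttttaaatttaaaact
The lsy-12 window within the gene held 1 match to GAANCC, read on its other strand, the upstream one held no match to any of the 3 motifs, and the cog-1 window held 1 match to TAATTA. The GC content was 39.3% and 46.8% in the lsy-12 windows and 21.4% in the cog-1 window.

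The lsy-6 gene lies on chromosome V, 10647232 to 10647304, plus strand. The 3′ arm of its hairpin, 22 bases long per the RefSeq annotation of WBcel235, is shown because lsy-6 is the gene whose expression is known to need LSY-2. Its seed, bases 2 to 8, is in capitals, and below it stand the stretches of the annotated cog-1 3′ untranslated region that hold the complement of that seed, also in capitals.
lsy-6 3′ arm: uUUUGUAUgagacgcauuucga
cog-1 site at chrII:14907400-14907421: aatcatcgtcacttATACAAAa
cog-1 site at chrII:14907442-14907463: taaaccatgcccaaATACAAAa
A seed match is a description of the sequence, and no measurement of repression is part of these data.

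Of the 10 genes, only lsy-22 had a thresholded LSY-2 summit in its window. Across nuclear protein-coding genes 19.4% had one in a window drawn the same way, and across microRNA genes 25.7%, so 1 of 10 is no excess over the background. No gene of the 10 had a summit among the 2182 strongest regions of both replicates, against 16.1% of protein-coding genes. Weak regions were listed in most of these windows: 9 of the 10 windows held at least 1 region of the list for both replicates together, against 75.2% of protein-coding genes. Among these 9 genes the strongest region had a median rank of 10246. This median was 6796 over the protein-coding genes with a listed region and 10692 over those of them without a thresholded summit. The merged windows span 120992 bp and held 30 listed regions, or 248 per Mb against 299 per Mb of the genome. For thresholded summits the density was 8.27 per Mb, from that 1 summit, against 21.8 per Mb. Outside lsy-22, the nearest thresholded summit lay between 8198 bp (lim-6) and 79900 bp (cog-1) from the 5′ end of the gene.

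**Figure D1:**
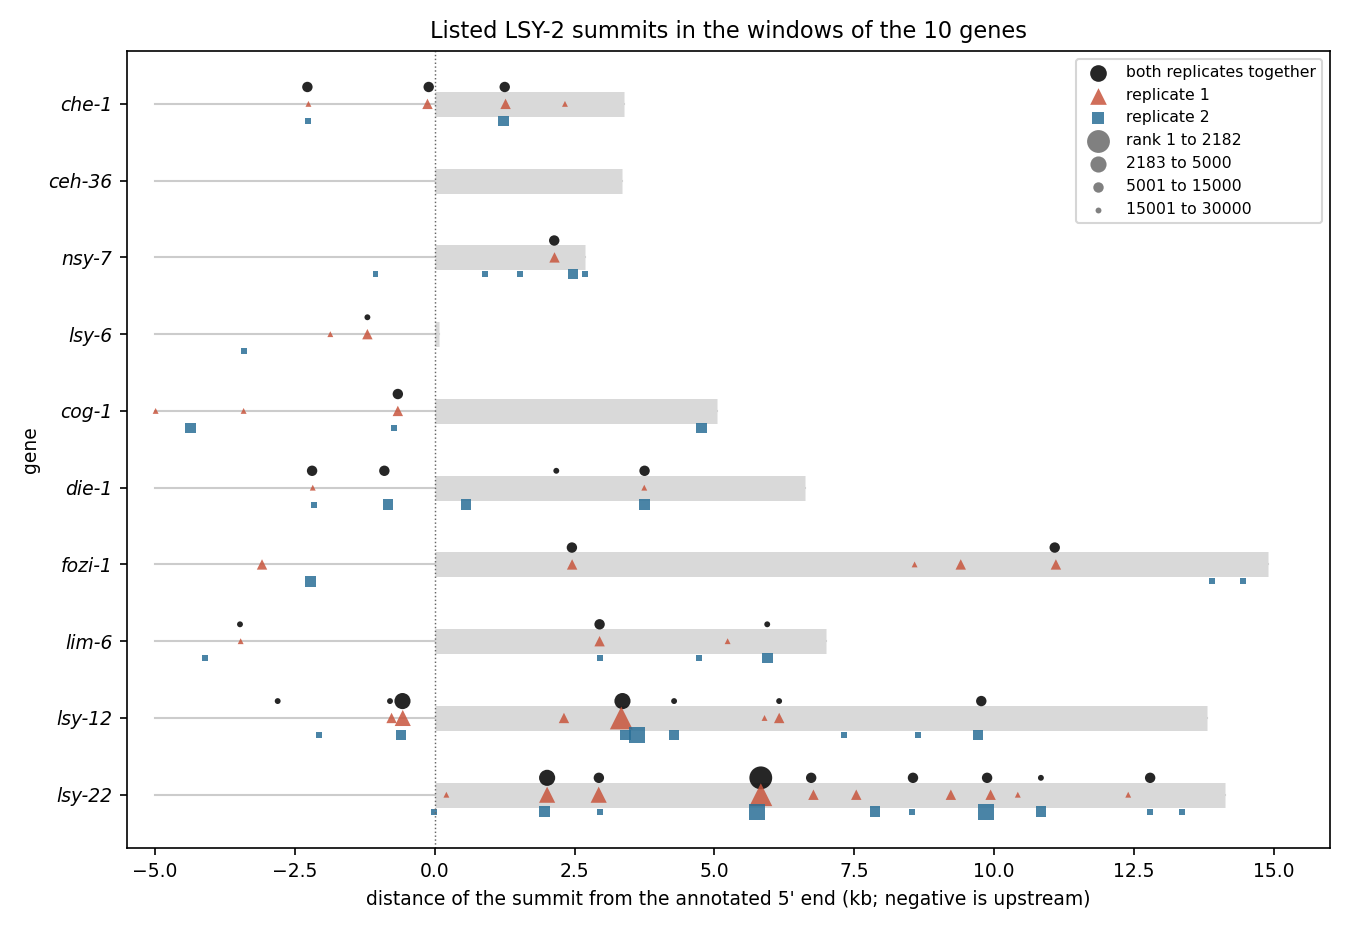
Each row is a gene, with its body as a grey bar and its 5 kb upstream as a thin line; the horizontal axis is the distance of a summit from the annotated 5′ end in kb. Circles, triangles and squares are summits listed for both replicates together, replicate 1 and replicate 2, larger for higher ranks; only lsy-22 has a circle of rank 2182 or better, lsy-12 has the next, and ceh-36 has none.

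The lsy-22 gene (WBGene00009188; chromosome I, 7704511 to 7718639, minus strand) carried the thresholded region, 7712629 to 7712992. Its signal was 48.4 for both replicates together (rank 2045), 37.2 in replicate 1 (rank 1548) and 14.4 in replicate 2 (rank 4158). These strongest regions had 3.34 and 1.66 times the median signal of their replicate's list, a mean of 2.50 ± 1.19 (SD, n = 2). The replicates thus differed in height, and in replicate 2 the region lay outside its 2182 strongest. Their summits fell within 200 bp of each other. The summit lay in an intron, 5828 bp downstream of the 5′ end of lsy-22, 5686 bp from its nearest annotated transcript start and 5787 bp upstream of that of F27D4.12, the gene with the nearest 5′ end. It was therefore more than 5 kb from the annotated 5′ end of any protein-coding gene, and 3145 bp from the nearest start of a gene of any kind. The window held 8 listed regions, all in introns, with others of rank 4231, 5069 and 5481 at 2008, 9874 and 2933 bp downstream of the 5′ end. No region of the list for both replicates together had its summit upstream of lsy-22. Replicate 2 alone listed one 18 bp upstream of its 5′ end, at rank 27150, and replicate 1 one 207 bp downstream of it, at rank 28440.

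The lsy-12 gene (WBGene00045419; chromosome V, 9846157 to 9859963, minus strand) came next, just below the threshold. Its strongest region had a signal of 44.7 (rank 2255), where the lowest thresholded region had 45.8. Its −log10 q of 3.18 was within the range of the thresholded regions, 3.15 to 3.63. Apart from lsy-22, the strongest regions of the other genes were far below that range in the joint list. Their −log10 q went from 0.08 (lsy-6) to 0.498 (che-1). The strongest signal in the window was 35.1 in replicate 1 (rank 1655) and 15.8 in replicate 2 (rank 3450), or 3.15 and 1.82 times the median of each list (mean 2.49 ± 0.941, SD, n = 2). In replicate 1 lsy-12 was thus among the 2182 strongest regions, and in replicate 2 it was not. The strongest summit of replicate 2 was more than 200 bp away from that of replicate 1. A further summit of replicate 2, ranked 7500, lay closer to it.

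Of the 7 listed lsy-12 regions, 3 are described here by their distance to annotated starts of its transcripts. The gene has 15 annotated transcripts. The summit of rank 2255 lay in an intron 3355 bp downstream of the 5′ end of the gene, and 192 bp upstream of the start of the shorter transcript R07B5.9a.2. The next region (signal 34.8, rank 3181; rank 2893 in replicate 1 and 12409 in replicate 2) lay 578 bp upstream of the 5′ end of the gene. A weak region (signal 14.8, rank 21011) lay 59 bp upstream of another internal start, that of R07B5.9k.2. It had a summit within 200 bp in replicate 1 (rank 9076) and none in replicate 2. The remaining 4 had signals between 12.4 and 19.3. With windows drawn at every annotated transcript start, from 1 kb upstream to 200 bp downstream, an approach chosen after these positions were seen, no gene of the 10 had a thresholded summit, against 10.4% of protein-coding genes. The 2182 strongest regions of replicate 1 gave lsy-12 alone and those of replicate 2 gave 0 of the 10 genes, against 10.2% of protein-coding genes in each replicate.

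The genes of the switch itself had only weak regions. In the joint list the strongest of cog-1 and die-1 had 1.15 and 1.09 times the median signal. That of lsy-6 was near the lowest listed signal, 12.3. For lsy-6 (WBGene00003088) the sole region from both replicates together, with its summit 1205 bp upstream of the hairpin, had a signal of 13.2 (rank 26365), or 0.768 times the list median. That summit lies inside the neighbouring gene C32C4.3. Replicate 1 listed it at 11.3 (rank 14407), and replicate 2 listed instead a region 3411 bp upstream with a signal of 7.81 (rank 18906). In terms of list medians these values, from different places, were 1.02 and 0.901 (mean 0.959 ± 0.082, SD, n = 2).

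At cog-1 (WBGene00000584; chromosome II, 14902493 to 14907533, plus strand), the only region from both replicates together had its summit 661 bp upstream, with a signal of 19.7 (rank 10755). Replicate 1 had a summit at the same base (13.8, rank 9006), and replicate 2 one 729 bp upstream (7.63, rank 19912). The strongest cog-1 region of replicate 2 lay elsewhere, in the annotated 3′ untranslated region 4770 bp downstream of the 5′ end (9.26, rank 12829). The strongest regions of the replicates, at these different places, were 1.24 and 1.07 times the list median (mean 1.15 ± 0.12, SD, n = 2). At the upstream place replicate 1 had 1.24 and replicate 2 had 0.88 times the list median.

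At die-1 (WBGene00000995; chromosome II, 10061302 to 10067917, minus strand) 4 regions were listed, and 3 of them were nearly level. They had signals of 18.8 (in a coding exon 3750 bp downstream of the 5′ end), 18.7 (902 bp upstream) and 18.6 (2194 bp upstream), with ranks 12019, 12283 and 12433. The strongest die-1 region of replicate 1 was the farther upstream one (9.19, rank 22274), and that of replicate 2 the nearer upstream one (10.4, rank 9490). At the nearer one, replicate 1 had no summit within 200 bp.

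The genes below the switch looked alike. At fozi-1 (WBGene00010453; chromosome III, 9281780 to 9296675, plus strand) 2 intronic regions, 2451 and 11083 bp downstream of the 5′ end, had nearly the same signal of 20.7 (ranks 9510 and 9523). Replicate 1 listed both (15.5, rank 6611; 15.8, rank 6343), and replicate 2 listed neither within 200 bp. Its strongest fozi-1 region was 2221 bp upstream (9.35, rank 12503). At lim-6 (WBGene00002988; chromosome X, 1072452 to 1079452, plus strand) the strongest region lay in an intron 2946 bp downstream (20.1, rank 10246). Replicate 1 had 12.5 there (rank 11297) and replicate 2 had 6.93 (rank 23984). Replicate 2 had its strongest lim-6 region in a coding exon 5948 bp downstream instead (10.2, rank 9967). The thresholded region nearest to lim-6, signal 49.4, lay 8198 bp upstream of it and 1801 bp upstream of unc-1, a stomatin-like protein gene.

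The genes that act above the switch, and nsy-7, also had no region near the threshold. The highest of these was che-1 (WBGene00000483; chromosome I, 6517529 to 6520918, minus strand), with an intronic region 1250 bp downstream of its 5′ end at a signal of 22.8 (rank 7527). It was listed at the same place in replicate 1 (12.9, rank 10471) and in replicate 2 (9.03, rank 13670), at 1.10 ± 0.0849 times the list median (SD, n = 2). A weaker che-1 region stood at the promoter, 109 bp upstream of the 5′ end (18.1, rank 13258), with a summit near it in replicate 1 (rank 10799) but none in replicate 2. Another che-1 region (19.9, rank 10529) lay upstream inside the next gene, T10E9.5.

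No region was listed for ceh-36 (WBGene00000457; chromosome X, 14183221 to 14186566, minus strand) in either replicate or in both together. This was so for 10.9% of protein-coding genes, and it says only that no signal there reached the lowest listed value, 12.3 for both replicates together. At nsy-7 (WBGene00044508; chromosome IV, 8083960 to 8086652, minus strand) the sole region from both replicates together was intronic, 2135 bp downstream of the 5′ end, with 17.6 (rank 14168). Replicate 1 had 17.1 there (rank 5256), its best rank for any of the 10 genes after lsy-22 and lsy-12. Replicate 2 had no summit within 200 bp of it, and its strongest nsy-7 region, in a coding exon, had 8.73 (rank 14791).

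**Figure D2:**
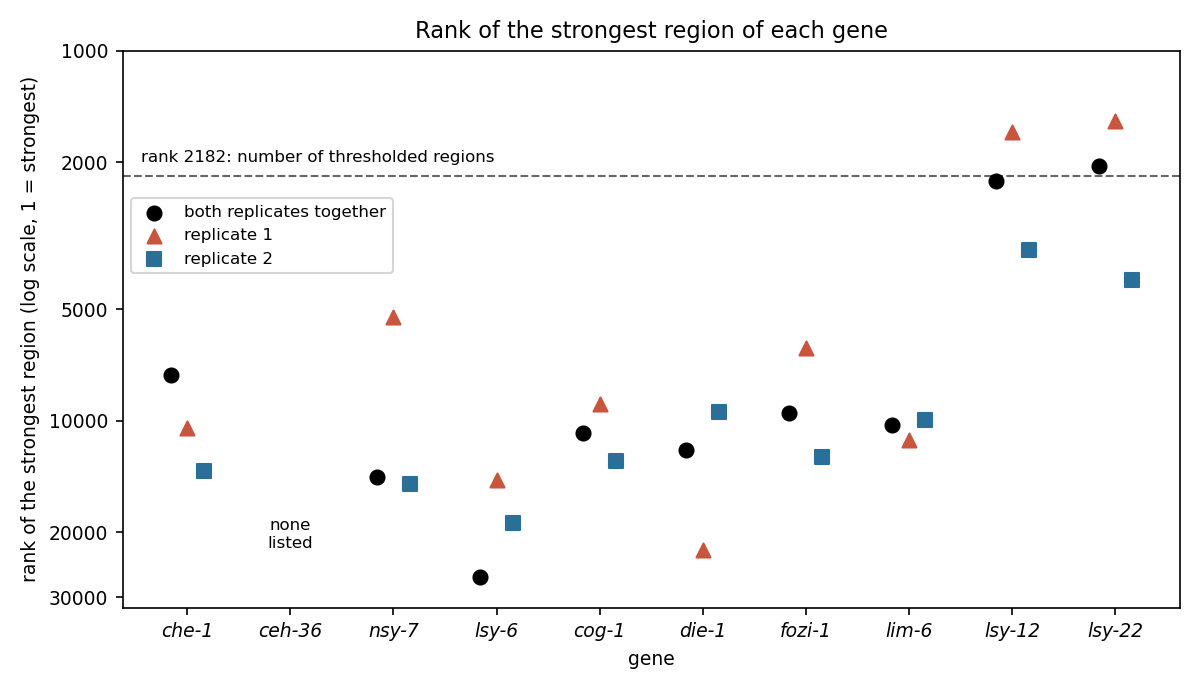
The vertical axis gives the rank of the strongest region of each gene on a log scale, with rank 1 as the strongest, in the list for both replicates together (circles), in replicate 1 (triangles) and in replicate 2 (squares). The dashed line is rank 2182; lsy-12 and lsy-22 rank from 1548 to 4158 and the other 7 genes with a listed region from 5256 downward.

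The order of the genes was only partly shared by the replicates. In both, lsy-22 and lsy-12 held the highest 2 ranks, with lsy-22 ahead in replicate 1 and lsy-12 ahead in replicate 2. Replicate 1 then had nsy-7, fozi-1, cog-1, che-1, lim-6, lsy-6 and die-1, from rank 5256 to 22274. Replicate 2 had die-1, lim-6, fozi-1, cog-1, che-1, nsy-7 and lsy-6, from rank 9490 to 18906. For 2 of the 9 genes with a region in both replicates (che-1 and lsy-22) the strongest summits of the replicates lay within 200 bp of each other. That share was 44.1% over the 13560 protein-coding genes with a region in both, 93.6% where the window held a thresholded summit and 24.3% where it held none. Of the 29 regions below the threshold in these windows, 12 (41.4%) had a summit within 200 bp in both replicates, against 33.1% of all such regions.

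Above 7 kb, longer windows hold a thresholded summit more often, and the windows of these genes differ in length. The share of protein-coding genes with one was 17.3% for windows of 7 to 8 kb and 32.0% for windows of 15 to 20 kb. The windows of lsy-22 (19.1 kb), lsy-12 (18.8 kb) and fozi-1 (19.9 kb) are of the latter length. Among the 314 protein-coding genes whose window is within 10% of that of lsy-22, 31.5% had a thresholded summit. The fozi-1 window is as long, and its strongest region ranked 9510. For ceh-36 and che-1, with windows of 8.35 and 8.39 kb, the shares at like length were 20.9% and 21.3%. By chromosome, the share was highest on III (31.0%), where fozi-1 lies, and on I (28.8%), where lsy-22 and che-1 lie. It was 20.2% on II (cog-1 and die-1), 18.8% on IV (nsy-7), 13.2% on X (lim-6 and ceh-36) and 11.0% on V (lsy-12 and lsy-6). A region as strong as that of lsy-22 or stronger was held by 18.4% of protein-coding genes, and one as strong as that of lsy-12 by 19.8%. For the other genes that share was between 39.5% (che-1) and 71.5% (lsy-6).

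**Figure D3:**
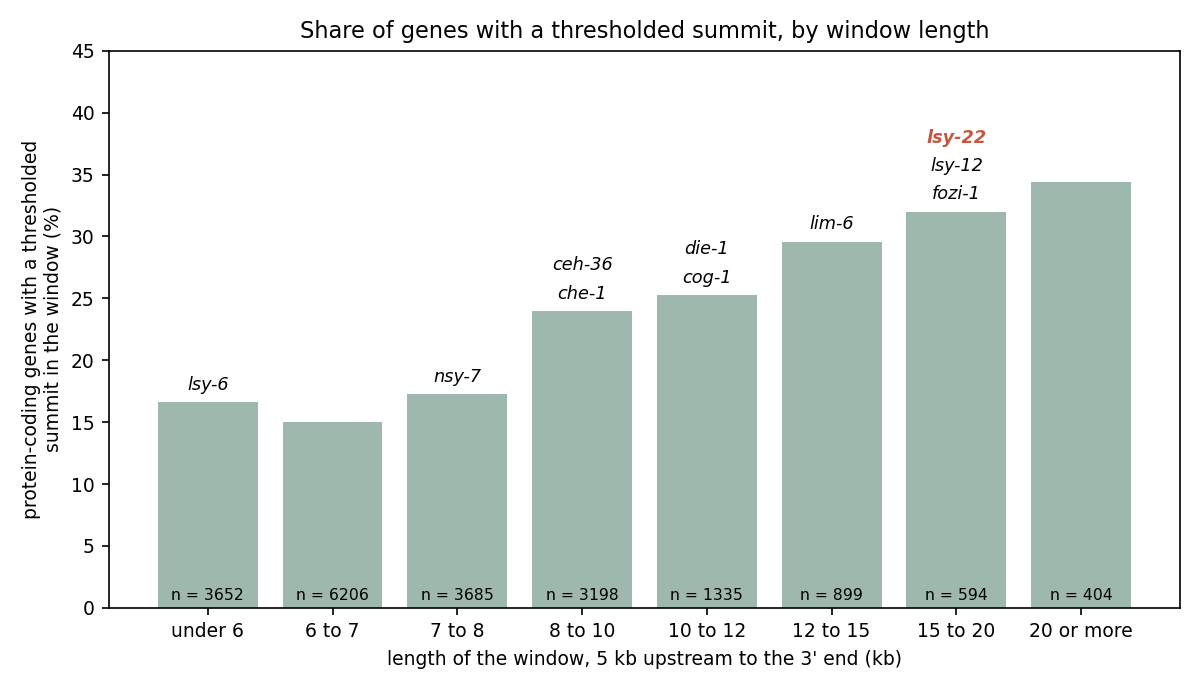
Bars give the percentage of protein-coding genes with a thresholded summit in the window, by window length in kb, with the number of genes at the foot of each bar. Names above a bar are those of the 10 genes with a window of that length, lsy-22 in bold red as the one with a thresholded summit; the share is 16.6% under 6 kb and 34.4% at 20 kb or more.

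Other genes of the ASE pathway gave a similar count. Of 20 on a list of such genes, 19 were located by name, and 2 had a thresholded summit in such a window. That is 10.5%, against 19.4% of protein-coding genes. One is lsy-13, which encodes a partner of LSY-12 in its acetyltransferase complex. Its summit lay 171 bp upstream of its 5′ end, with a signal of 61.5 (rank 1561), 25.2 in replicate 1 (rank 2515) and 36.6 in replicate 2 (rank 1052). The other is gcy-22, a receptor guanylyl cyclase gene of the right ASE neuron, where the stronger of 2 summits (71.2, rank 1321) lay at a distance of 3951 bp on the 5′ side, only 132 bp upstream of sbt-1. The tagged gene lsy-2 had no listed region in its window in either replicate. Of 61 protein-coding genes with a ceh symbol, for homeobox, other than ceh-13 and ceh-36, 7 had a thresholded summit in the window. That is 11.5%, again against 19.4% of protein-coding genes. The 7 were ceh-38 (signal 213), ceh-5 (140), ceh-39 (102), ceh-21 (93.6), ceh-48 (87.0), ceh-20 (85.1) and ceh-6 (56.5). The strongest ceh-5 summit lay 4869 bp upstream, only 416 bp upstream of eat-16. That of ceh-21 lay 3635 bp upstream, only 199 bp upstream of ceh-39. From 1 kb upstream to 200 bp downstream of the 5′ end, 4 of 61 had one (6.56%), against 9.85% of protein-coding genes. None of these differences was tested, and with 10 genes a share of this size moves by 10 percentage points for a single gene.

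The 3 motifs were counted within 100 bp of the summits. GAANCC was present at 7 of the 30 regions in the windows of the 10 genes (23.3%), against 20.2% of the thresholded and 22.2% of all listed regions. TAATCC was present at 2 of 30 (6.67%), against 3.57% and 6.40%. TAATTA was present at 7 of 30 (23.3%), against 5.96% and 9.64%. The 7 regions with TAATTA were 2 at lsy-22, 2 at die-1 and 1 each at cog-1, che-1 and lsy-6. The lsy-22 region that passed the threshold held none of the 3 motifs. Base composition moved with these counts: the median GC content around the summits was 32.1% in the 30 regions, 42.5% in the thresholded and 35.3% in all listed regions, and its part in the TAATTA share was not tested.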

How the data were processed

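ChIP-seq regions of 1 group with 2 biological replicates were used. Per the deposited lists of files, the authors called regions on ce11 alignments of each replicate and of both together against a control alignment, and thresholded them by the irreproducible discovery rate. The caller and aligner were not given in the sources used here, nor were their settings. The deposited signal is the authors' value for each region; since replicates may differ in its scale, it served for ranks within a list. The deposited −log10 q was only described, and the p-value column held no values. The ce10 lists were not used.

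Genes were those of Ensembl release 115; sequences came from the RefSeq copy of WBcel235. Summits were assigned to every gene whose window holds them, so neighbours can share one. Ranks, counts and shares were computed, with no test, since there is 1 group and depth is unknown. SDs over 2 replicates show their spread only. For cog-1, lsy-6 and lsy-12 they take in regions at different places. The genes and lists were chosen with earlier results of these data known. The text describes each gene's strongest region, every thresholded region, the gene with the nearest 5′ end, and pathway genes with a thresholded summit. The lsy-22 sequence is not printed. Python 3.11.15, numpy 2.4.6 and pandas 2.3.3 were used. Window assignment was tested on simulated data: all 200 genes with planted summits among 2000 were recovered, with 0 wrong assignments. Alternatives were other windows, summit or overlap criteria, list lengths, the upper 50% of thresholded regions, and each replicate alone.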

Additional observations from a re-analysis of the deposited data

How the results depend on the processing

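The count of 1 gene with a thresholded summit (lsy-22) was the same with windows from 2 kb upstream and with regions overlapping the window by 1 bp. It was 2 from 10 kb upstream (lim-6 added). It was 0 with windows of 1 kb upstream to 200 bp downstream, in the upper 50% of thresholded regions, with only the nearest 5′ end, and at any transcript start, a choice made after seeing the data. With either replicate left out, the 2182 strongest regions of the other replicate stood in for the thresholded regions, which need both. The count then ranged from 0 to 2: without replicate 1 none, without replicate 2 lsy-12 and lsy-22. The share of protein-coding genes was 13.96% from 2 kb, 26.8% from 10 kb, 9.85% for the promoter window, 11.4% in the upper 50%, 20.1% by overlap, 9.11% by nearest 5′ end, 10.4% at any transcript start, and 19.07% to 19.11% with a replicate left out. The count of genes with a summit among the strongest regions of both replicates was 2 (lsy-12 and lsy-22) with the top 5000. No share of protein-coding genes is at hand for the top 5000, so this count cannot be read against a background. It was 0 with the top 1000, from 2 kb upstream and with summits within 200 bp. The density of thresholded summits in the windows, 8.27 per Mb from 1 summit, was 0 for the promoter window and in the upper 50%. It was 10.99 from 2 kb and 17.5 from 10 kb upstream. For the 2182 strongest regions of a single replicate, the density was 0 without replicate 1 and 16.5 without replicate 2. The median rank of the strongest region ranged from 9006 to 12503 with a replicate left out. No paired analysis was possible because there is only 1 group. The main limits are the unknown depth, whole larvae as the source, and regions below the threshold of which most were not listed at the same place in both replicates.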

Other observations

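A grouping made after the values were seen, and not tested, sets the general regulators of the pathway beside its transcription factors. The genes for the LSY-12 acetyltransferase, its partner LSY-13, the Groucho protein UNC-37 and the Groucho-like LSY-22 had strongest regions of rank 2255, 1561, 2823 and 2045 for both replicates together. A region as strong as that of lsy-22 was held by 18.4% of protein-coding genes, and one as strong as that of lsy-12 by 19.8%. No such share is at hand for lsy-13 or unc-37. Both lsy-22 and lsy-12 have long windows, and 31.5% of genes with a window like that of lsy-22 had a thresholded summit. The unc-37 summit lay 260 bp upstream of its 5′ end, with a signal of 37.5, 22.2 in replicate 1 (rank 3078) and 20.5 in replicate 2 (rank 2226). It was thus just outside the 2182 strongest regions of replicate 2. Of the transcription factor genes of the 10, the highest was che-1 at rank 7527. Among the other regulators on the pathway list, lsy-27 had rank 21724 and tbx-37 rank 21773, and lsy-2 and tbx-38 had no listed region. The regulator lsy-15, also on that list, was not located by name. The lsy-13 and unc-37 regions ranked higher in replicate 2 than in replicate 1, and the strongest lsy-12 and lsy-22 regions ranked higher in replicate 1.

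Among the receptor and neuropeptide genes that the ASE neurons use, flp-4 came after gcy-22 (rank 1321), with a region of rank 2259 (signal 44.6). The others ranked from 6669 (gcy-7) to 26066 (gcy-5), and gcy-1 and flp-20 had no region for both replicates together. The strongest region in the flp-4 window ranked 4629 in replicate 1 and 1690 in replicate 2. A region as strong as that of lsy-12, at rank 2255, was held by 19.8% of protein-coding genes. The flp-4 summit of rank 2259 lay 3700 bp upstream of flp-4 and 5 bp upstream of F52H3.11.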
